A study of Saccharomyces cerevisiae with 3 samples.

Results

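The lysine synthesis genes of budding yeast were followed in a strain short of HAL3 and VHS3. They were taken by systematic name and comprised LYS20, LYS21, LYS4, LYS12, LYS2, LYS5, LYS9, LYS1 and the regulator gene LYS14, 9 of the 6212 genes listed, and all 9 had a ratio on every array. The mutant carried tetO:HAL3 vhs3::URA3, with HAL3 behind a tetO promoter that doxycycline switches off and VHS3 replaced by the URA3 marker. The wild type had the same JA100 background, and doxycycline at 100 µg/ml was given to both strains, which were cultured at 28 °C for 15 h in synthetic complete medium. Total RNA of both strains was hybridised together on 3 arrays with 2 colours. The labels give 2 biological replicates, the first hybridised on 2 arrays with the dyes exchanged (averaged here to 1 value per gene) and the second on 1 array with the mutant in Cy5. The sources used here do not say whether the replicates were separate transformants or only separate cultures.

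Yeast makes lysine through the aminoadipate pathway, which starts from 2-oxoglutarate and acetyl coenzyme A. Lys20 and Lys21 form homocitrate, Lys4 and Lys12 carry it on to 2-oxoadipate in mitochondria, an aminotransferase turns that into 2-aminoadipate, and Lys2, Lys9 and Lys1 complete the route to lysine. Lys2 works only after Lys5 has attached to it a phosphopantetheine group taken from coenzyme A. The pathway thus draws on coenzyme A as a substrate and as the source of a cofactor, and Hal3, Vhs3 and Cab3 form the decarboxylase of coenzyme A synthesis. Lys14 is a transcription factor that switches on LYS genes when the pathway intermediate 2-aminoadipate semialdehyde is present, lysine in the medium lowers that signal through feedback on homocitrate synthase, and many LYS genes also answer to Gcn4, the activator of amino acid synthesis.

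All values are log2 ratios, each array being centred on its median, and negative values are lower in the mutant. Mutant over wild type is the likely direction of the deposited ratios, read from VHS3 and HAL3 in replicate 1, but it is not settled. The mutant was in Cy5 on 2 arrays and in Cy3 on the swapped array, so the dyes alone give no common direction. The array titles are written as strain pairs with the Cy3 strain ahead of the slash, wild type on 2 arrays and mutant on the swapped array. Read as ratios, they would put wild type on top for those 2 arrays, and would give the swapped array the opposite sign, whereas the deposited values of the swap ran the same way (r = 0.508). If the common direction were wild type over mutant, every value called lower here would be higher in the mutant. VHS3, the deleted gene, was at −2.06 and −2.50 in the dye swap of replicate 1 and 0.09 on the array labelled as the second replicate. HAL3 (SIS2 in RefSeq) was at −1.33, −1.29 and −0.14 in that order. URA3, the marker carried by the mutant, was at −1.40, −0.82 and −0.33, below 0 on every array, which goes against the genotype in this direction. The absence of a lower VHS3 ratio goes against the label of the second replicate's array, and replicate 1 and that array, called here the array labelled Rep2, are given separately throughout. The lysine genes were chosen by name with the log2 ratios of this same comparison already known, so their values are a description and carry no test. Ratios are relative to all labelled cDNA of a culture, and fewer expressing cells and less transcript per cell cannot be told apart.

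The lysine genes were lower in the mutant in replicate 1 and close to 0 on the array labelled Rep2. Ratios of all genes also spread less on that array, with an SD of 0.353 against 0.650 and 0.699 in the dye swap. In replicate 1 all 9 were below 0, where 48.2% of all genes tested were, with values between −2.89 (LYS1) and −0.17 (LYS5) and a median of −1.05, against a median of 0.02 over the 4598 genes with a value in both replicates. On the array labelled Rep2 the median of the lysine genes was 0.03, with values between −0.59 (LYS5) and 0.20 (LYS21), against 0.00 (0.0014) over all genes, and 5 of 9 were above 0, where 50.1% of all genes were. At least 2-fold lower in replicate 1 were 6 of 9 lysine genes, where 3.81% of all genes tested were that low. That count was 3 of 9 with the arrays scaled to the same spread, and also 3 with quantile normalization. On the array labelled Rep2, 0 of 9 were at least 2-fold lower, where 1.98% of all genes were. The mean over the 2 replicates had a median of −0.48 over the lysine genes and of 0.01 over all genes tested. In limma with Benjamini-Hochberg adjustment over all 4598 genes, 0 genes (0%) passed the threshold of 0.05, the lysine genes included. Scaled arrays gave 4 calls, quantile normalization 12, and the array with the mutant in Cy3 alone for replicate 1 gave 13, with 0 lysine genes among them in each case. At an unadjusted p under 0.05 stood 1 of 9 lysine genes, LYS2, and 4.83% of all genes.

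**Figure D1:**
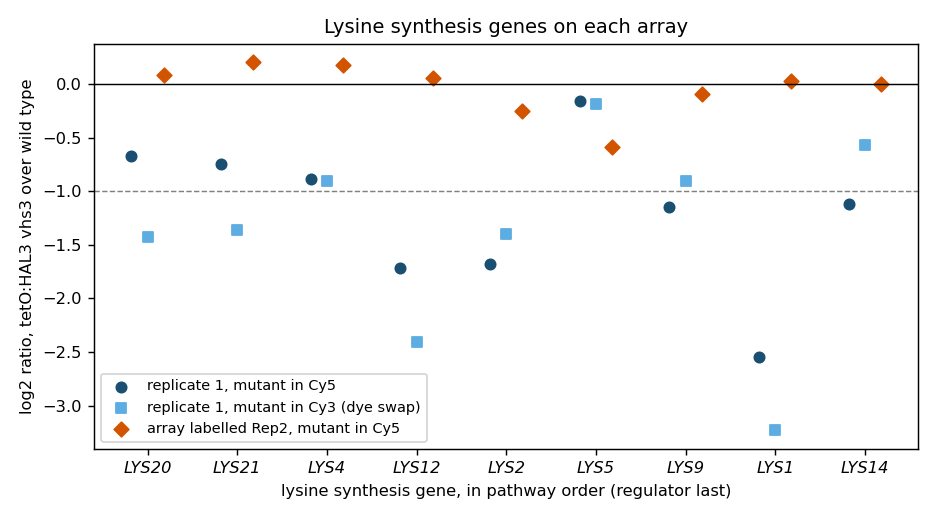
Log2 ratio of mutant over wild type (vertical axis) of the 9 lysine synthesis genes in pathway order, with 1 point per array and a dashed line at 2-fold lower. Both arrays of replicate 1 lie below 0 for every gene, while on the array labelled Rep2 the genes lie between −0.59 and 0.20.

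The entry into the pathway is shared by LYS20 and LYS21, which encode isozymes of homocitrate synthase, the step that lysine inhibits. LYS20 (YDL182W) was at −0.68 and −1.43 in the dye swap, with the mutant in Cy5 and then in Cy3, and at 0.08 on the array labelled Rep2. LYS21 (YDL131W) was at −0.75, −1.36 and 0.20 in the same order. Both were thus lower on each array of replicate 1 and slightly above 0 on the other array, with means of −0.48 ± 0.80 and −0.43 ± 0.89 (SD, n = 2). Averaged over the dye swap they were 2.07-fold (LYS20) and 2.08-fold (LYS21) lower in replicate 1. The isozyme genes never differed from each other by more than 0.12 on an array, while the dye swap moved them by 0.75 and 0.61. The coding sequences of LYS20 and LYS21 are very similar, so the spots may have picked up a mixture of both transcripts, and the 2 genes do not count as separate observations.

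Homocitrate is converted in mitochondria by homoaconitase, encoded by LYS4, and homoisocitrate dehydrogenase, encoded by LYS12. LYS4 (YDR234W) was at −0.89 and −0.91 in the dye swap and at 0.18 on the array labelled Rep2, a mean of −0.36 ± 0.76 (SD, n = 2). It was 1.86-fold lower in replicate 1, and its dye-swap values differed by only 0.02. With arrays scaled to the same spread the means of LYS20, LYS21 and LYS4 were −0.32, −0.22 and −0.18, and leaving out the swapped array put those of LYS20 and LYS21 at −0.30 and −0.27. LYS12 (YIL094C) was at −1.72 and −2.40 on the pair and at 0.05 on the array labelled Rep2, a mean of −1.003 ± 1.496 (SD, n = 2). It was 4.17-fold lower in replicate 1, the 25th lowest of the 4598 genes, and stood in the middle of all genes on the array labelled Rep2, where 60.0% of genes were at or below its value.

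The later part of the pathway runs through 2-aminoadipate reductase (LYS2) and the saccharopine dehydrogenases that form saccharopine (LYS9) and release lysine from it (LYS1). LYS2 (YBR115C) was at −1.68 and −1.40 in the dye swap and at −0.25 on the array labelled Rep2, a mean of −0.90 ± 0.91 (SD, n = 2). It was lower on every array, 2.90-fold in replicate 1 and 1.19-fold on the array labelled Rep2. LYS9 (YNR050C) was at −1.15, −0.91 and −0.10, a mean of −0.56 ± 0.66 (SD, n = 2), and it too was below 0 on each array.

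LYS1 (YIR034C), the gene of the last step, had the lowest values of the 9 on both arrays of replicate 1. It was at −2.55 and −3.23 in the dye swap and at 0.03 on the array labelled Rep2, a mean of −1.43 ± 2.06 (SD, n = 2). In replicate 1 it was 7.41-fold lower and the 9th lowest of 4598 genes. On the array labelled Rep2 it did not stand apart, with 55.0% of genes at or below its value. The steps at which the pathway begins and ends therefore differed in size in replicate 1, from 2.07-fold at LYS20 to 7.41-fold at LYS1 (4.53-fold with LYS1 centred on its own chromosome), but no order of size can be read on the array labelled Rep2, where LYS1, LYS12 and LYS20 lay within 0.1 of 0.

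LYS5, which encodes the phosphopantetheinyl transferase that activates Lys2, showed a different pattern from the enzyme genes. LYS5 (YGL154C) was at −0.16 and −0.19 in the dye swap and at −0.59 on the array labelled Rep2, a mean of −0.38 ± 0.29 (SD, n = 2), or −0.58 with scaled arrays. It was the highest of the 9 genes in replicate 1 and the lowest on the array labelled Rep2, where it was 1.504-fold lower and 5.85% of genes were at or below its value. Its substrate enzyme gene LYS2 had the opposite relation, with the larger difference in replicate 1. LYS5 lies on chromosome VII, where 16.2% of the 413 genes tested were at −0.5 or lower on the array labelled Rep2, against 7.59% of all genes, a limit set after the value of LYS5 was seen. LYS5 was the 52nd lowest of those 413 genes, and the median of its 10 nearest measured genes on that array was 0.01 (0.00745). The part of the chromosome in the value of LYS5 was not tested.

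LYS14 (YDR034C), the gene of the pathway's activator, was at −1.12 and −0.57 in the dye swap and at 0.00 (−0.0028) on the array labelled Rep2, a mean of −0.42 ± 0.59 (SD, n = 2). It was 1.79-fold lower in replicate 1. The dye swap moved it by 0.55, in the opposite direction from LYS20 and LYS21.

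In replicate 1 the order from the lowest was LYS1, LYS12, LYS2, LYS21, LYS20, LYS9, LYS4, LYS14 and LYS5. LYS21, LYS20, LYS9, LYS4 and LYS14 fell between −1.05 and −0.84, a span smaller than the gap of 0.47 that is the median difference between both dye-swap arrays over 4546 genes, so their order is not resolved. LYS1 and LYS12 were 0.83 apart and LYS12 and LYS2 0.52 apart. The gap between the dye-swap arrays was above that median for 5 of the 9 lysine genes, and 6 of the 9 were lower with the mutant in Cy3. At least 2-fold lower on both arrays of the pair were 3 genes, LYS12, LYS2 and LYS1, where 2.62% of the genes measured on both were that low.

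**Figure D2:**
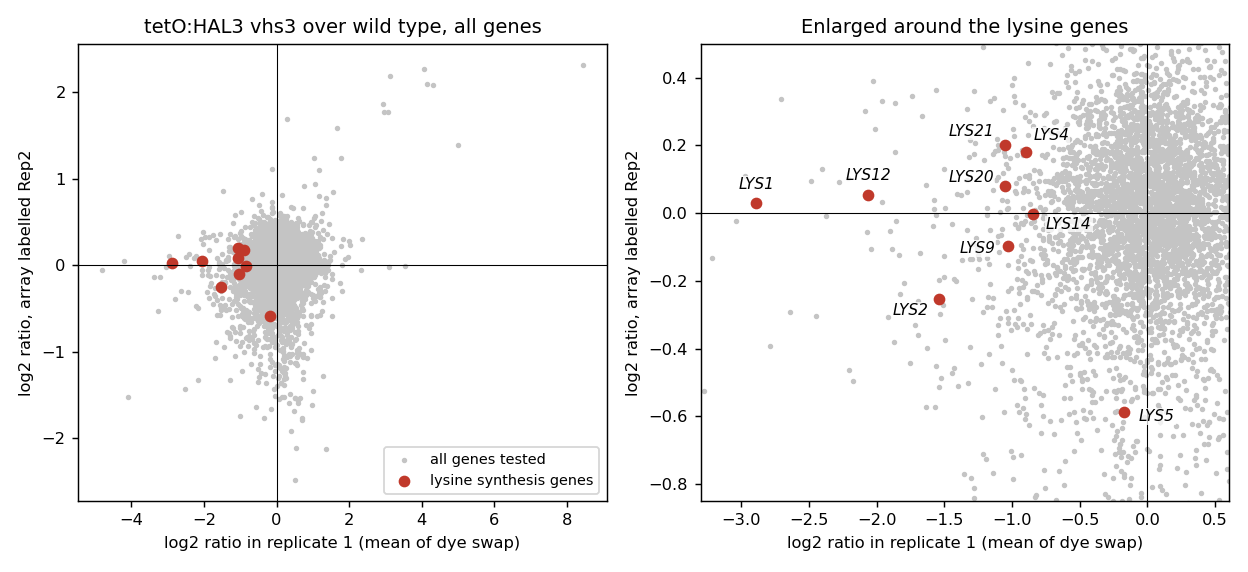
Log2 ratio of mutant over wild type in replicate 1 (horizontal axis, mean of the dye swap) against that on the array labelled Rep2 (vertical axis), for all 4598 genes tested (grey) and the 9 lysine genes (red), with the region around the lysine genes enlarged on the right. LYS1, LYS12 and LYS2 lie far to the left near the horizontal line through 0, and LYS5 lies near the vertical line at −0.59.

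The replicates differed in sign for most lysine genes. Below 0 in replicate 1 and above 0 on the array labelled Rep2 were 5 of 9 (LYS20, LYS21, LYS4, LYS12 and LYS1), where 23.5% of all genes were. Below 0 in both were the other 4 (LYS2, LYS5, LYS9 and LYS14), where 24.6% of all genes were. Of these LYS14 was within 0.01 of 0 on the array labelled Rep2, and lay above 0 there without centring and at 0.02 with centring by chromosome. The middle part of all genes, between the lower and upper quartile of the array labelled Rep2 (−0.17 and 0.15), held 5 of the 9 lysine genes.

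LYS12 and LYS1 lie on chromosome IX, whose genes were lower as a whole in replicate 1. The median of its 158 tested genes was −0.67 in replicate 1 and −0.05 on the array labelled Rep2, and 26.6% of them were at least 2-fold lower in replicate 1. LYS1 was the lowest of these 158 genes and LYS12 the 5th lowest. The 10 measured genes nearest to LYS1 had a median of −0.80 in replicate 1, all 10 being below 0, and those nearest to LYS12 one of −0.34, with 8 of 10 below 0. With each gene centred on its own chromosome, LYS1 was at −2.18 and LYS12 at −1.35 in replicate 1, that is 4.53-fold and 2.55-fold lower, and the mean of LYS12 over the replicates was −0.62. Both thus remained below their chromosome, and by this measure LYS2, on chromosome II, was lower (−1.63) than LYS12. How far the shift of the chromosome enters the 2 values was not tested.

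The other 7 lysine genes lay on chromosomes II, IV, VII and XIV, whose medians in replicate 1 ran from 0.02 to 0.11. LYS20, LYS21, LYS4 and LYS14 are all on chromosome IV, where 1.99% of 554 genes were at least 2-fold lower in replicate 1. The medians of the 10 nearest measured genes of these 7 ran from −0.10 (LYS20) to 0.21 (LYS21) in replicate 1. Without LYS12 and LYS1 the median of the lysine genes was −1.03 in replicate 1 and 0.00 (−0.0028) on the array labelled Rep2. Centred by chromosome, 6 of 9 lysine genes were still at least 2-fold lower in replicate 1, where 3.13% of all genes were.

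**Figure D3:**
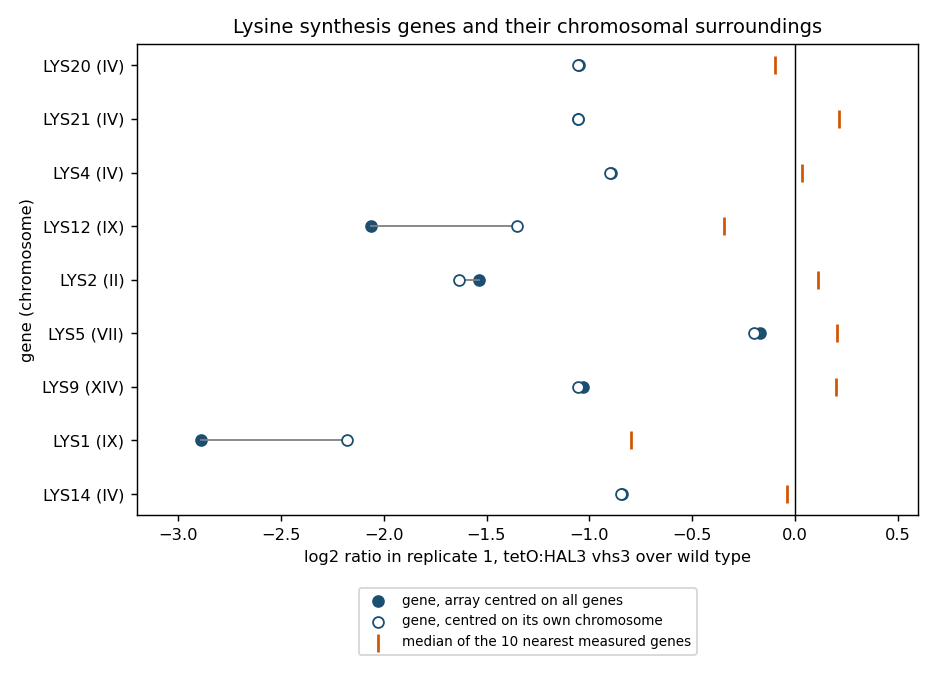
Log2 ratio of mutant over wild type in replicate 1 (horizontal axis) for each lysine gene with its chromosome, before (filled) and after (open) centring on that chromosome, and the median of its 10 nearest measured genes (bar). Only LYS12 and LYS1 move by more than 0.1, to −1.35 and −2.18, and each lysine gene lies below the median of its neighbours.

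Other genes around the pathway were described from lists of related genes, in which 0 of 66 measured genes were higher and 0 lower at limma's adjusted p of 0.05 over all genes, with 1 higher and 5 lower at an unadjusted p under 0.05. Over all genes tested, 4.83% had an unadjusted limma p under 0.05, 64 of them higher and 158 lower. Of the pathway's partners outside the LYS names, 4 of 5 were measured, and 3 of 4 were below 0 in replicate 1. ARO8, an aminotransferase that can form 2-aminoadipate, was at −0.30, −0.56 and −0.10. ARO8 thus lay above the LYS enzyme genes other than LYS5 in replicate 1.

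Genes that move lysine and other basic amino acids across membranes were at a median of −0.12 in replicate 1, against 0.10 for the array labelled Rep2, with 7 of 9 measured and 1 of the 7 at least 2-fold lower in replicate 1. LYP1, the lysine permease of the plasma membrane, was at −0.49, −0.23 and −0.24 on the 3 arrays. RTC2, which carries basic amino acids across the vacuolar membrane, was at −1.71, −1.69 and −1.07 and was the 1 gene of the list at an unadjusted p under 0.05. RTC2 was lower than any lysine gene on the array labelled Rep2. It was named by a rule that asks for the same sign on every array, so being lower in both replicates does not set it apart from the lysine genes.

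The precursors of the pathway are supplied by enzymes that make 2-oxoglutarate and acetyl coenzyme A. Of 12 such genes 11 were measured, with medians of −0.14 and 0.03, and 0 were at least 2-fold different in replicate 1. No measured gene of this list had the same sign on every array that held it. ACS2, acetyl coenzyme A synthetase, picked out after its values were known, was at −0.67 and −0.52 in the dye swap and at 0.03 on the array labelled Rep2. Regulators of lysine and amino acid synthesis had medians of −0.14 and −0.12 over 6 genes, 5 of them below 0 in replicate 1 and 3 on the array labelled Rep2. RTG1 and RTG3 encode the transcription factor pair of the retrograde pathway, which controls genes of 2-oxoglutarate supply. RTG1 was at −0.69 with the mutant in Cy5, blank on the swapped array and at −0.65 on the array labelled Rep2, and was the 1 gene of the list at an unadjusted p under 0.05. RTG3 was at −0.01, −0.22 and −1.12, so it was at least 2-fold lower on the array labelled Rep2 alone. GCN4, whose product is set mainly by translation, was at −0.11, −0.28 and 0.14.

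Coenzyme A also serves other carrier proteins that need a phosphopantetheine group. PPT2, the mitochondrial transferase of that group, was at −0.05 with the mutant in Cy5, blank on the swapped array and at 0.34 on the array labelled Rep2. ACP1, its mitochondrial carrier protein, was at 0.86, −0.45 and 0.08, so its dye-swap values had opposite signs. FAS1, a subunit of the cytosolic fatty acid synthase, was at −0.32, −0.16 and −0.59. FAS2, the subunit with the carrier domain, was blank on all 3 arrays. Pantothenate and coenzyme A synthesis genes were at a median of −0.34 in replicate 1, against −0.16 for the array labelled Rep2 (8 of 9 measured, 7 below 0 in replicate 1 with 0 at least 2-fold lower, and 6 below 0 on the array labelled Rep2 with 1 at least 2-fold lower). FMS1, which makes a precursor of pantothenate, was at −0.87, −0.32 and −0.14. CAB2 and CAB4, of earlier and later steps of coenzyme A synthesis, were at −0.74, −0.40 and −0.14, and at −0.03, −0.23 and −0.88. LYS5 at −0.17 in replicate 1 lay within the range of these genes, whereas 6 lysine genes were at least 2-fold lower there.

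Synthesis genes of other amino acids were set beside the lysine genes. Below 0 in replicate 1 and above 0 on the array labelled Rep2 were 5 of 9 lysine, 7 of 9 arginine, 8 of 12 leucine, isoleucine and valine, and 3 of 6 histidine genes. Of all genes tested, 23.5% had these signs. In replicate 1 the median was −1.66 for arginine (9 genes, 8 at least 2-fold lower), −1.05 for lysine (9 genes, 6 at least 2-fold lower), −0.77 for leucine, isoleucine and valine (12 genes, 3) and −0.35 for histidine (6 of 7 genes measured, 1). Of all genes tested, 3.81% were at least 2-fold lower there. On the array labelled Rep2 their medians were 0.13, 0.03, 0.17 and 0.12 in the same order. In the arginine list ARG3, ornithine carbamoyltransferase, was at −4.21, −5.39 and −0.05 on the 3 arrays, further from 0 in replicate 1 than any lysine gene. Of the leucine, isoleucine and valine genes, 10 of 12 were below 0 in replicate 1, and 2 were above 0 in both replicates. The 2 were BAT2, the cytosolic branched-chain aminotransferase, at 2.23, 1.83 and 0.24, and LEU3, the activator of leucine genes, at 0.15, 1.83 and 0.18. No lysine gene was above 0 in replicate 1. Of the histidine genes, 5 of 6 were below 0 in replicate 1. HIS6, on chromosome IX, was below 0 on each array, at −0.75, −0.34 and −0.59, and HIS1 was above 0 on each, at 0.51, 0.39 and 0.15. These lists share the same arrays, and differences between them were not tested.

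**Figure D4:**
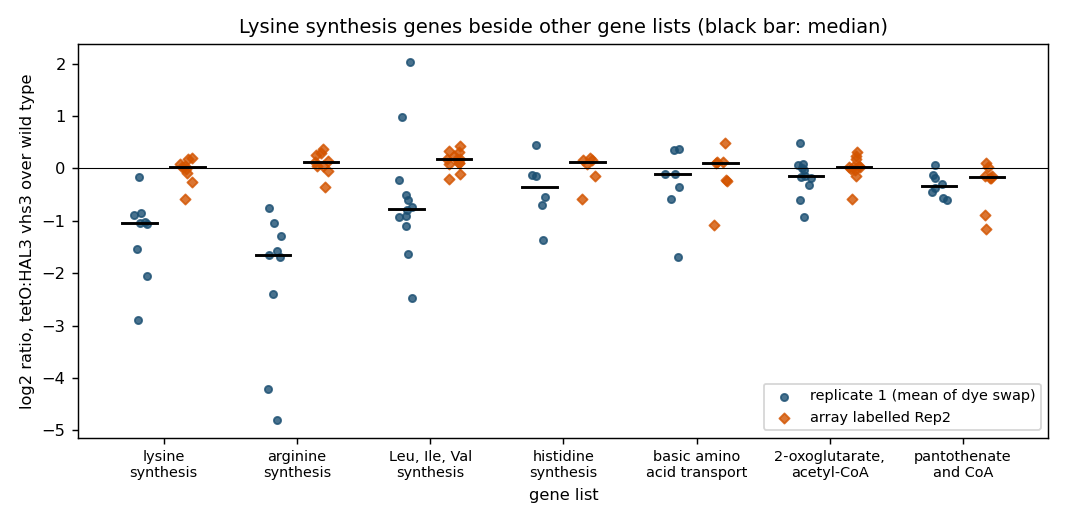
Log2 ratio of mutant over wild type (vertical axis) for each measured gene of 7 lists, with replicate 1 (blue circles) left of the array labelled Rep2 (orange diamonds) and the median of each as a black bar. The medians of lysine synthesis are −1.05 and 0.03, and those of arginine synthesis −1.66 and 0.13.

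Outside all these lists, the 3 genes with the smallest Euclidean distance to the medians of the lysine genes over the 3 arrays (−1.12, −1.36 and 0.03) were GLK1, BNA1 and CST6, among 4184 genes measured on all arrays. GLK1, glucokinase, was at −1.02, −1.39 and 0.16, with a distance of 0.17. BNA1, an enzyme of NAD synthesis, was at −1.26, −1.40 and 0.10, also with a distance of 0.17. CST6, a transcription factor gene on chromosome IX, was at −0.93, −1.44 and 0.02, with a distance of 0.21. This likeness rests on 3 arrays, 2 of them made from the same RNA.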

How the data were processed

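The authors deposited log2 ratios, 1 for each gene on each array. How they scanned, corrected, filtered and normalized the spots is not stated in the sources used here, so signal over background is unknown, and blanks were left out. Per the labels' protocols, 8 µg of total RNA was copied with an oligo(dT) primer and the cDNA coupled to Cy3 or Cy5 afterwards. As deposited log2 values, 100% of ratios that the rounding can resolve are whole multiples of 0.001, against 9.69 to 12.4% with the sign turned. Array medians as deposited were 0.0229, 0.0072 and 0.0468. The dye-swap arrays correlated positively across genes (r = 0.508), so their deposited values ran the same way. The sources used here do not say whether the swapped array was turned before deposit. Its ratios were whole multiples of 0.001 as deposited, as on the other arrays, which does not show a sign turned after rounding. The averages of replicate 1 take both of its arrays to have the same direction. Replicate 1 and the array labelled Rep2 correlated at 0.159.

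Array medians were set to 0, the dye-swap arrays were averaged, and genes with a value in both replicates (4598) were fitted in R 4.3.3 by limma 3.58.1 for a mean ratio other than 0 (two-sided, Benjamini-Hochberg at 0.05, 1 residual degree of freedom). The fit was tested on simulated data in which both replicates shared the same true changes. That test does not cover replicates that correlate as weakly as these did. The number of arrays limits the precision, and p-values measure only the spread between these samples, which may be technical. Names, chromosomes and neighbours came from a RefSeq table of assembly R64, which named 5638 of 6212 identifiers, as no source used here names the array's build. The lysine genes and the 9 other lists were chosen with earlier results of these data known. In each list up to 3 genes with the largest mean ratio and the same sign on every array could be named. Neighbouring genes (5 on each side, lysine genes left out), ACS2 and GCN4 were picked out after their values were seen. Promoter and protein sequences were not used here, and 1 listed gene is not reported here. Alternatives changed centring, scale, normalization, the arrays used, the variance prior and the fold limit.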

Additional observations from a re-analysis of the deposited data

How the results depend on the processing

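All 9 lysine genes kept the sign of their mean ratio under the 7 other treatments of centring, scale and arrays (63 values, 0 changed sign). The treatment that needed a value on all 3 arrays could not change them, since all 9 had one on each. However, 9 of the 63 values, in 5 genes (LYS20, LYS21, LYS4, LYS12 and LYS5), differed from those reported by over 1.5 times. These arose with scaled arrays (4), quantile normalization (2, LYS21 at −0.27 and LYS4 at −0.22), Cy5 arrays alone (2) and centring by chromosome (1). The median of their means stayed between −0.58 and −0.45, with −0.43 without LYS12 and LYS1 (chosen after seeing the data). By replicate, that median was between −1.05 (without replicate 2) and 0.03 (without replicate 1), and LYS20, LYS21, LYS4, LYS12 and LYS1 lay above 0 without replicate 1. Below 0 were 4 to 9 of the 9 genes with 1 replicate left out. At least 2-fold lower in replicate 1 were 3 genes with arrays scaled to the same spread and 3 with quantile normalization, both of which shrink the ratios of replicate 1 by construction. Over all genes limma called 4 with scaled arrays, 12 with quantile normalization and 13 with the array with the mutant in Cy3 alone for replicate 1, against 0 otherwise, with 0 lysine genes among them; the cause was not tested. The fit is already paired by array, since each value is a ratio of both strains within it, and no further block was fitted. Neither replicate alone allows a test, and without intensities the limits of detection are unknown.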
